A study of Mus musculus with 16 samples.

Results

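The 39 genes described here encode solute carriers of the renal proximal tubule, together with the water channel Aqp1. They were taken by gene symbol from a list of carriers, and all 39 passed a filter on low values that 18035 of the 20525 genes in the deposited matrix passed (10 or more normalized counts in 4 or more of the 16 libraries). By main substrate they comprise 3 carriers of phosphate, 5 of sugars, 9 of amino acids and peptides, 7 of carboxylates and ascorbate, 10 of organic anions and cations, and 5 of sulfate, acid-base equivalents and water. Bulk RNA sequencing was done on lysates of frozen kidney sections, 30 µm thick, from mice 8 weeks old whose strain is written C56BL/6 in the labels. The 16 libraries form 4 groups of 4: WT mice given PBS, WT mice given glycerol, mice labelled C3-/- given PBS, and mice labelled C3-/- given glycerol. Glycerol, 7.5 ml/kg of a 50% dilution, was injected into a thigh muscle to cause rhabdomyolysis, the breakdown of skeletal muscle that releases myoglobin and can injure the kidney. The study asked how the loss of complement C3, the protein on which the complement pathways converge, alters the kidney's response. The labels give neither a sex nor a sampling time. The labels do not say that libraries came from separate animals, so p-values measure the spread between these libraries, which may be technical.

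The proximal tubule reclaims most of the filtered sodium, phosphate, glucose, amino acids and bicarbonate. Apical carriers of its brush border use the inward sodium or proton gradient to take up solutes from the filtrate, and basolateral carriers pass them on to the blood. Other carriers run from blood to urine: organic anion and cation transporters take up drugs and waste metabolites across the basolateral membrane and release them into the lumen. Tubule cells that are injured or dedifferentiate are known to lose much of this transport programme. In bulk tissue, fewer cells of a type and less RNA per cell cannot be told apart.

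Promoter windows, from 250 bases before to 50 bases after a start site, were at hand for 32 of the 39 genes (RefSeq, GRCm38.p6), and were searched on both strands for the motif CAAAGTCCA of HNF4, a transcription factor of proximal tubule cells. It was found in 1 of 32, Slc3a1, against 0.555% of 27025 genes. The 250 bases before the start of Slc3a1 are printed to show where the match lies, in capitals.
Slc3a1, chr17:85028097-85028346, plus strand: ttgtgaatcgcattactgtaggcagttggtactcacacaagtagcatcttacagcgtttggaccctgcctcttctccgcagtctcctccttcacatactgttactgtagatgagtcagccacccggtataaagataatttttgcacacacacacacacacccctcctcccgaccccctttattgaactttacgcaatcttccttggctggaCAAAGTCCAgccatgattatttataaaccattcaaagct
The match began 39 bases before the start site. A match is a description of the sequence, and no binding was measured. Of the protein-coding genes followed most closely below, Slc34a1 lies at chr13:55398187-55415592, Slc6a19 at chr13:73679745-73704865, Slc5a12 at chr2:110597298-110647779, Slc13a2 at chr11:78397087-78422217, Slc7a8 at chr14:54722209-54781946 and Slc22a6 at chr19:8618039-8628299 (GRCm38).

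Several features of the libraries bear on the values below. The transcript of C3 itself was not missing from the libraries labelled C3-/-. Its normalized counts after PBS were 564 to 1140 there against 335 to 471 in WT, without overlap, and after glycerol 1457 to 8008 against 1712 to 4718, with overlap. The gene's value therefore goes against the label or does not check it, and whether its reads come from outside a deleted part was not tested. Transcripts of 4 Y-linked genes summed to between 3266 and 6319 in 11 libraries, among them all 8 WT libraries, labelled C3-/- PBS replicate 4 and labelled C3-/- glycerol replicates 3 and 4. They summed to at most 3.36 in the other 5, in which Xist, which silences an X chromosome in female cells, reached 16098 to 35410. In WT glycerol replicate 4 and in labelled C3-/- glycerol replicates 1 and 3, the labels' sheet number repeats a number used by another library. These 3 libraries, called the second sheet list here, have the highest totals, 35.81 to 38.39 against 25.81 to 34.01 M normalized counts, and WT glycerol replicate 4 lists 3374 genes at 0 against at most 982 elsewhere. The 13 proximal tubule markers, such as Lrp2, Cubn and Miox, were all above 0 in every library, and Havcr1, the tubule injury marker KIM-1, lay between 7.52 and 94.5 in PBS libraries.

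In WT kidneys without injury, the most abundant carrier RNA per length was Slc34a1, the sodium-phosphate cotransporter NaPi-IIa, at 22725 ± 2176 normalized counts per kb of exon (SD, n = 4). Slc22a12, the urate carrier URAT1, followed at 11986 ± 1012, without overlap of the libraries' ranges. Aqp1 had 6947 ± 479 and Slc17a1, a phosphate and urate carrier of the brush border, had 6299 ± 406, and their ranges overlapped. Slc20a2, the sodium-phosphate cotransporter PiT-2, and Slc2a9, a urate and hexose carrier, stood lowest, at ranks 38 and 39. Along the whole order, 29 of the 38 pairs of neighbours had ranges that overlapped. Per-length levels of Slc22a12 and Slc3a1 are less certain than most, because 30.1% and 26.5% of their exon bases overlap exons of Nrxn2 and Prepl on the opposite strand and the strand setting of the counting is not known.

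In WT kidneys, RNA of most of the 39 carriers, a list chosen with earlier results of these data known, was lower after glycerol. Of the 39 carriers 27 fell and 0 rose (limma, Benjamini-Hochberg adjusted p below 0.05 over 18035 genes), against a background of 13.3% of all tested genes called lower and 12.5% called higher. The median log2 change was -1.50 over the carriers and -0.11 over all genes. For 31 carriers every glycerol library lay below every PBS library, against 22.4% of all genes. The falls reached each substrate group: 6 of 7 carboxylate and ascorbate carriers, 7 of 9 amino acid and peptide carriers, 7 of 10 organic ion carriers, 2 of 3 phosphate carriers, 3 of 5 sugar carriers, and Aqp1 and Slc4a4 in the last group. With library totals made equal, 26 carriers fell and 0 rose, while the background split turned from 13.3% lower and 12.5% higher to 9.53% and 14.0%.

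In the libraries labelled C3-/-, fewer carriers passed the test. Of the 39, 10 fell and 0 rose (limma, same threshold), against a background of 1.96% called lower and 3.68% called higher (1.25% and 4.13% with equal totals). Falls were called for 5 of 9 amino acid and peptide carriers, 2 of 7 carboxylate carriers, and 1 each of the phosphate, sugar and last groups, but for 0 of 10 organic ion carriers, 1 of which had an unadjusted p below 0.05. The median change was -0.84, and 14 carriers had glycerol libraries that all lay below the PBS libraries (9.71% of all genes). The count fell to 4 without labelled PBS replicate 1 or 3 and to 5 without labelled PBS replicate 2 or labelled glycerol replicate 1. Calls of lower genes over all 18035 fell too, from 353 to 129, 144 and 152 without labelled PBS replicates 1, 2 and 3. Without labelled glycerol replicate 1 they numbered 163. The count of lower carriers was 12 when the second sheet list was left out, with 2 carriers higher, Slc20a2 and Slc3a2 (background 10.6% lower and 12.4% higher).

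The estimated change was lower in WT for 30 of the 39 carriers and lower in the libraries labelled C3-/- for 9. This count was not made over all genes, where the median difference between the responses was 0.03. The carriers share the same 16 libraries, so their signs are not independent. The difference between the responses was called for 0 of 39 carriers by limma (background 0.438% in either direction), and 8 had an unadjusted p below 0.05. The smallest adjusted p was 0.0815, for Slc7a8, whose change differed by 1.24 ± 0.30 (SE) on the log2 scale. Within the first sheet list 3 carriers were called, Slc20a2 lower and Slc2a9 and Slc3a2 higher (background 5.42% lower and 4.88% higher). With terms for the sheet list and the Y-linked transcripts 4 were called, all higher: Slc7a8, Slc16a4, Slc22a13 and Slc2a9 (background 4.97%). The separate counts of 27 and 10 are thus not by themselves a test of a genotype difference.

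**Figure D1:**
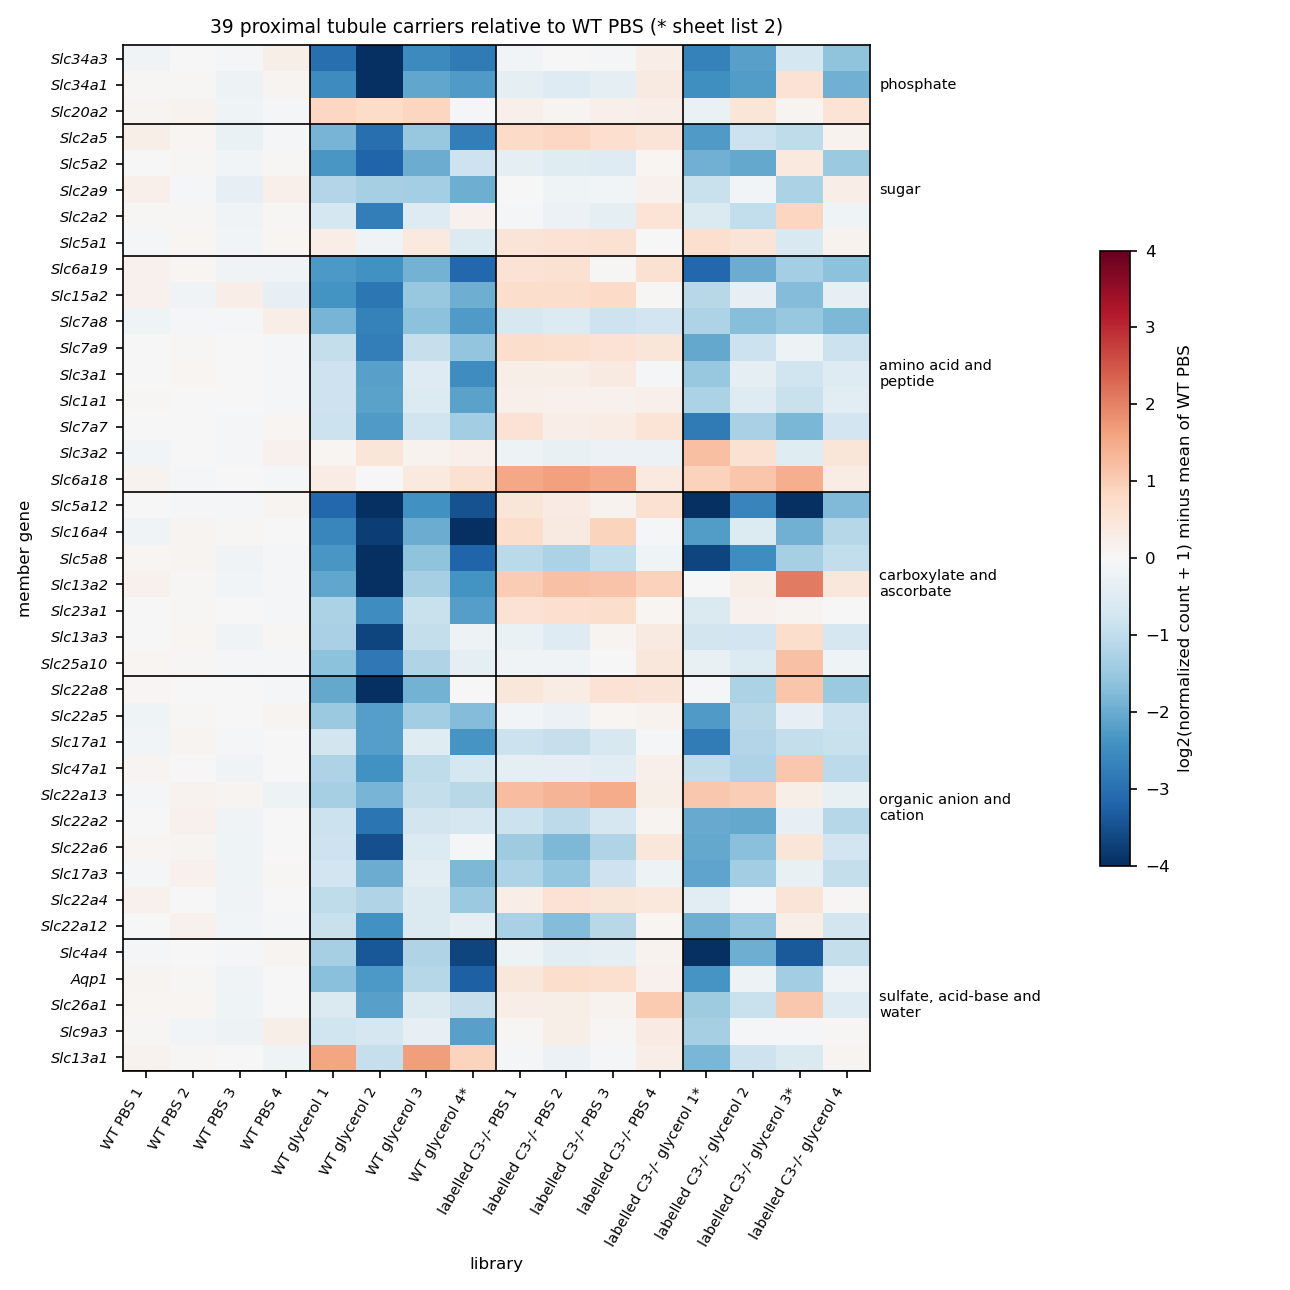
Each row is a carrier, grouped by substrate, and each column a library; colour gives log2(normalized count + 1) minus the mean of the WT PBS libraries, from -4 (blue) to 4 (red), and asterisks mark the second sheet list. In WT glycerol replicate 2, 36 carriers lie below all WT PBS libraries, and in labelled C3-/- glycerol replicate 3, 22 lie below and 15 above them. These counts were made for the carriers only, without a share over all genes, so they do not show that the carriers stand out.

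Libraries of a group did not respond alike. The median deviation of the 39 carriers from WT PBS was -1.23, -2.43, -0.94 and -1.73 in WT glycerol replicates 1 to 4. It was -1.53, -0.87, -0.33 and -0.66 in the libraries labelled C3-/- after glycerol. The glycerol groups overlapped, since labelled C3-/- replicate 1 lay lower than WT replicates 1 and 3. The carriers' summed counts made up 1.27% to 1.51% of the library total in PBS libraries, 0.305% to 0.816% in WT glycerol libraries and 0.445% to 1.35% in labelled C3-/- glycerol libraries. Havcr1 moved in the opposite direction but ranked the libraries differently. It read 57982, 46259, 52729 and 28050 in WT glycerol replicates 1 to 4, against 3450, 3579, 1088 and 9458 in the libraries labelled C3-/-, so those groups did not overlap. Of 13 tubule injury genes, 12 rose in WT and 7 in the libraries labelled C3-/-, and 11 were lower in labelled C3-/- than in WT kidneys after glycerol. The background for those calls was 12.5%, 3.68% and 4.85% of all genes. The part of these differences in the carrier values was not tested.

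**Figure D2:**
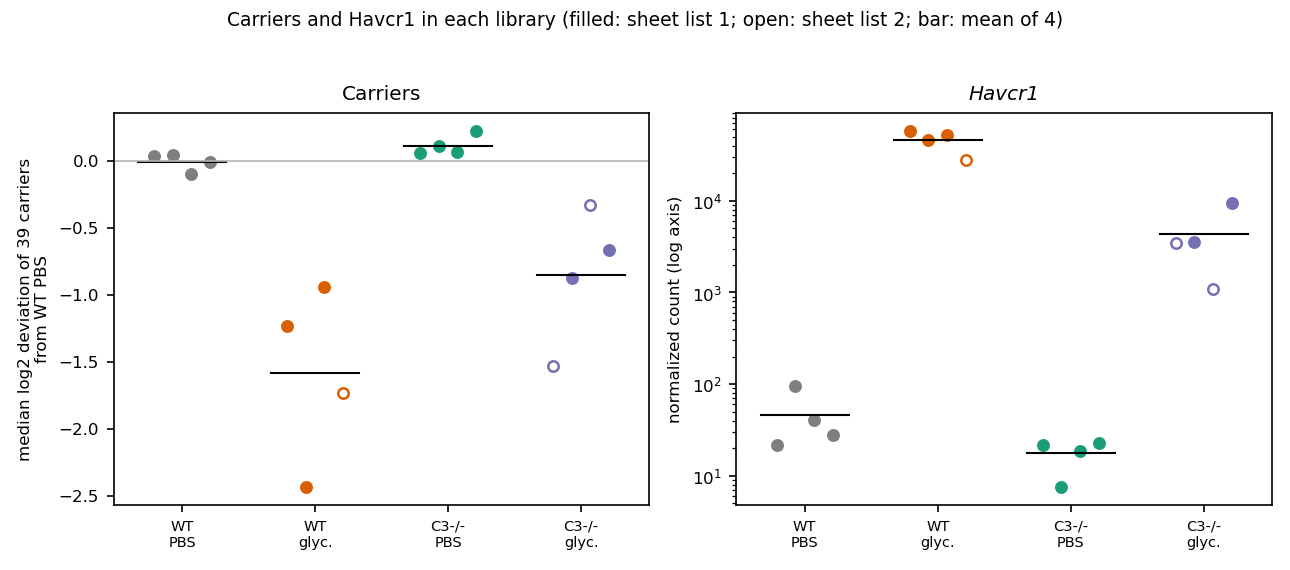
Left, the median log2 deviation of the 39 carriers from the WT PBS mean in each library; right, the normalized count of Havcr1 on a log axis. Points are libraries, open for the second sheet list, and bars are means of 4. The glycerol groups overlap for the carriers and are separate for Havcr1.

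Among phosphate carriers, both type II cotransporters fell in WT. Slc34a1 read 109427, 108627, 91669 and 115322 in WT PBS and 18518, 5164, 25293 and 22200 in WT glycerol libraries. In labelled C3-/- libraries it read 81332, 74517, 80646 and 136425 after PBS and 19208, 22486, 158390 and 27846 after glycerol. All WT glycerol libraries were far below WT PBS, whereas labelled C3-/- glycerol replicate 3 exceeded every other library. The log2 change was -2.80 ± 0.59 (SE) in WT (limma, adjusted p 0.00328). With the C3-/- label it was -1.28 ± 0.59 (adjusted p 0.198), and without glycerol replicate 3 it was -1.98 (adjusted p 0.0145). The genotypes differed after glycerol by 1.29 ± 0.59 (adjusted p 0.196). Of the exon bases of Slc34a1, 11.7% overlap those of Pfn3 on the other strand.

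Slc34a3, the related cotransporter NaPi-IIc, had the second largest fall of the 39 in WT. Its counts were 1174, 1271, 1234 and 1501 in WT PBS, 158, 65, 221 and 181 in WT glycerol, 1195, 1286, 1241 and 1559 in labelled C3-/- PBS, and 195, 287, 784 and 422 in labelled C3-/- glycerol libraries. The mean after glycerol was 8.27-fold lower in WT and 3.13-fold lower in the libraries labelled C3-/-. The log2 changes were -3.17 ± 0.39 (limma, adjusted p 5.85e-05) and -1.83 ± 0.39 (adjusted p 0.012). After glycerol Slc34a3 was higher in labelled C3-/- than in WT libraries by 1.36 ± 0.39 (adjusted p 0.0329), although labelled replicate 1 lay within the WT range. That call was lost without WT glycerol replicate 1 or 2 or labelled glycerol replicate 3 or 4, with adjusted p from 0.0587 to 0.102. Slc20a2 was not called. It read 1140, 1167, 951 and 1025 in WT PBS and 1883, 1775, 1953 and 1023 in WT glycerol libraries, higher in 3 of 4 (log2 change 0.59 ± 0.21, adjusted p 0.0544), and the authors' deposited table lists it as higher (adjusted p 0.0125).

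Of the sugar carriers 3 of 5 fell in WT. Slc5a2, the glucose cotransporter SGLT2 of the early tubule, read 12432, 12659, 11486 and 12882 in WT PBS and 2439, 1342, 3122 and 6925 in WT glycerol libraries. After PBS and glycerol in the libraries labelled C3-/- it read 9537, 8899, 8648 and 13042, then 3226, 2983, 16208 and 4439. The groups were separate in WT, and in the libraries labelled C3-/- only glycerol replicate 3 stood above the PBS values. Slc5a2 fell in WT by 2.09 on the log2 scale (SE 0.49, limma, adjusted p 0.00643). In the libraries labelled C3-/- the change was -0.95 ± 0.49 (adjusted p 0.24), and without glycerol replicate 3 it was -1.50 (adjusted p 0.0323). By contrast Slc5a1, the glucose cotransporter SGLT1 of the late tubule, changed by -0.01 ± 0.26 in WT (adjusted p 0.989), with 1974 to 2219 after PBS and 1446 to 2756 after glycerol. Slc2a2, the basolateral glucose carrier GLUT2, had a change of -0.96 ± 0.50 in WT (adjusted p 0.172) and WT glycerol values of 3010, 718, 3430 and 5515.

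Slc2a5, the fructose carrier GLUT5, fell in each genotype. It read 1657, 1504, 1193 and 1376 in WT PBS, 392, 174, 494 and 208 in WT glycerol, 2420, 2499, 2271 and 2042 in labelled C3-/- PBS, and 292, 785, 695 and 1553 in labelled C3-/- glycerol libraries. No glycerol library reached the PBS range of its genotype. The log2 changes were -2.29 ± 0.41 in WT (limma, adjusted p 0.000972) and -1.70 ± 0.41 in the libraries labelled C3-/- (adjusted p 0.0235). The latter call was lost without labelled PBS replicate 1, 2 or 3 or labelled glycerol replicate 1 (adjusted p 0.0606 to 0.0718). Slc2a9 fell in WT by 1.45 (SE 0.29, adjusted p 0.00209), from 400 to 580 after PBS to 131 to 223 after glycerol. After glycerol it was higher by 0.94 ± 0.29 in the libraries labelled C3-/- (adjusted p 0.0471), which read 270, 469, 210 and 608, so the groups overlapped. Leaving out any library but labelled glycerol replicate 1 or 3 moved this adjusted p to between 0.0605 and 0.11.

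**Figure D3:**
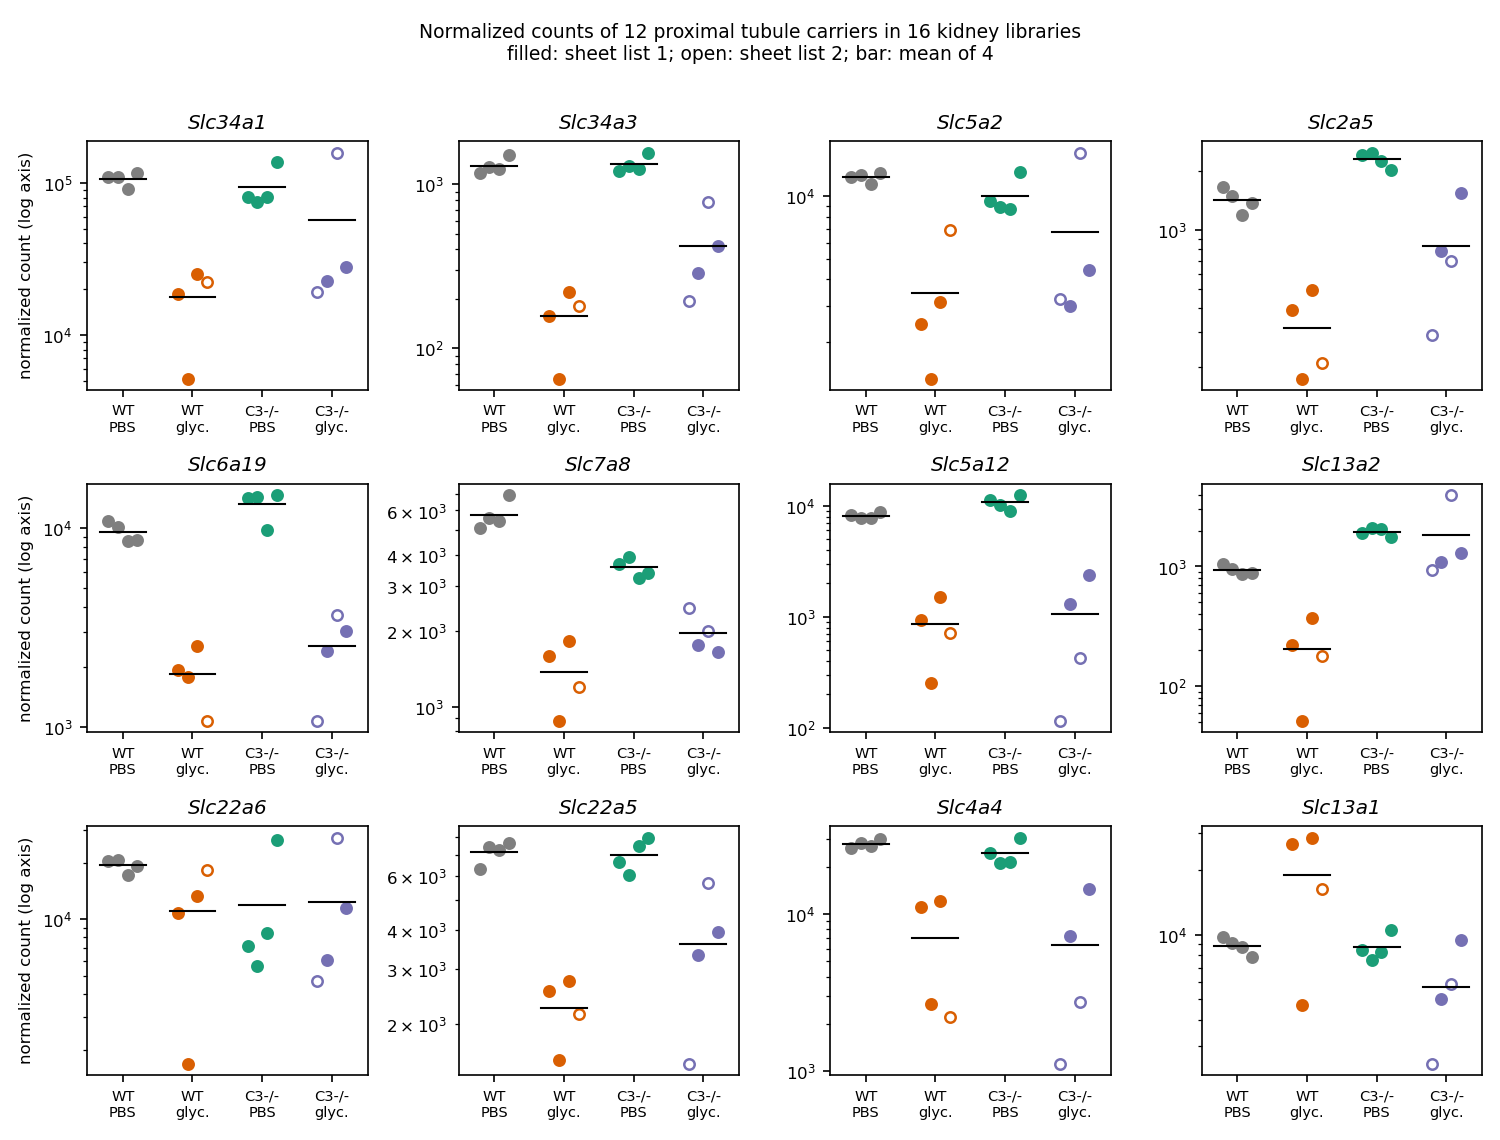
Normalized counts, on log axes, of 12 carriers in the 4 groups; points are libraries (open for the second sheet list) and bars are means of 4. Slc34a3, Slc6a19, Slc7a8 and Slc5a12 show glycerol libraries below all PBS libraries in each genotype, and Slc13a1 lies above WT PBS in 3 of 4 WT glycerol libraries.

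Of the 9 amino acid and peptide carriers, 7 fell in WT and 5 in the libraries labelled C3-/-. Slc6a19, the apical neutral amino acid carrier B0AT1, read 10759, 10074, 8592 and 8682 in WT PBS and 1927, 1775, 2563 and 1069 in WT glycerol libraries. It read 14076, 14330, 9793 and 14589 in labelled C3-/- PBS and 1073, 2397, 3659 and 3037 in labelled C3-/- glycerol libraries. The falls were close in size, with means 5.20-fold lower in WT and 5.19-fold lower in the libraries labelled C3-/-. The log2 changes were -2.44 ± 0.33 (limma, adjusted p 0.000129) and -2.49 ± 0.33 (adjusted p 0.000528), and their difference was -0.06 ± 0.47 (adjusted p 0.995).

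Slc7a8, the basolateral exchanger LAT2, had the smallest p of all carriers in WT. It read 5121, 5579, 5452 and 6906 in WT PBS, 1593, 876, 1828 and 1194 in WT glycerol, 3695, 3937, 3247 and 3397 in labelled C3-/- PBS, and 2460, 1749, 1998 and 1651 in labelled C3-/- glycerol libraries. Its PBS level was lower in every labelled C3-/- library than in any WT library, and glycerol libraries were below PBS libraries in each genotype. The log2 changes after glycerol were -2.12 ± 0.21 in WT (adjusted p 1.11e-05) and -0.87 ± 0.21 in the libraries labelled C3-/- (adjusted p 0.0236). Slc15a2, the peptide carrier PEPT2, read 3058, 2458, 3280 and 2168 in WT PBS and 517, 363, 945 and 702 in WT glycerol libraries. It read 4370, 4375, 4594 and 2777 in labelled C3-/- PBS and 1246, 2173, 816 and 2152 in labelled C3-/- glycerol libraries. It fell by 2.19 in WT (SE 0.33, adjusted p 0.000321) and by 1.42 in the libraries labelled C3-/- (adjusted p 0.0218), and after glycerol was higher by 1.31 ± 0.33 in the latter (adjusted p 0.0186). The second call was lost without labelled PBS replicate 1, 2 or 3 or labelled glycerol replicate 1 (adjusted p 0.0701 to 0.0705), and the third without WT glycerol replicate 1 or 2 or labelled glycerol replicate 2 (adjusted p 0.0526 to 0.0669).

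The subunits of the cystine carrier, Slc3a1 (rBAT) and Slc7a9 (b0,+AT), fell together in WT. Slc3a1 went from 12952 to 14104 after PBS to 2411 to 9405 after glycerol, and Slc7a9 from 2557 to 2738 to 390 to 1413, without overlap. In labelled C3-/- libraries Slc7a9 was called and Slc3a1 was not, at 4652 to 10271 after glycerol against 12934 to 17196 after PBS. Slc7a7, the light chain of the basolateral exchanger y+LAT1, is a carrier whose estimated fall was larger in the libraries labelled C3-/-: -2.10 ± 0.37 (limma, adjusted p 0.00411) against -1.33 in WT, where it was also called. Its counts there were 5921, 4815, 4834 and 5844 after PBS and 555, 1607, 1122 and 2357 after glycerol. Slc3a2 (4F2hc), the heavy chain that pairs with Slc7a7 and Slc7a8, was not called in either genotype: it read 4526, 4848, 4673 and 5501 in WT PBS and 5158, 6847, 5405 and 5622 in WT glycerol libraries. With the C3-/- label it read 3953 to 4214 after PBS and 11312, 7478, 3472 and 6798 after glycerol, higher in 3 of 4. Slc6a18, the apical carrier B0AT3 whose gene adjoins Slc6a19 on chromosome 13, was not called in WT either, with 13563 to 15726 after PBS and 14151 to 21926 after glycerol.

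Of the carboxylate and ascorbate carriers 6 of 7 fell in WT and 2 of 7 in the libraries labelled C3-/-. Slc5a12, the sodium-coupled lactate carrier SMCT2 of the brush border, had the largest estimated fall of all 39 in each genotype. It read 8257, 7802, 7751 and 8775 in WT PBS and 929, 252, 1520 and 722 in WT glycerol libraries. In the libraries labelled C3-/- it read 11377, 10150, 8892 and 12467 after PBS and 115, 1300, 422 and 2399 after glycerol. The mean was 9.52-fold lower in WT and 10.1-fold lower in the libraries labelled C3-/-. The log2 changes were -3.51 ± 0.71 (limma, adjusted p 0.00235) and -4.09 ± 0.71 (adjusted p 0.00362). After glycerol the genotypes differed by -0.19 ± 0.71 (adjusted p 0.906). That difference turned to 1.32 within the first sheet list, where it was not called. Slc5a8, the related carrier SMCT1, fell in WT by 2.84 (SE 0.56, adjusted p 0.0019), from 8078 to 9614 after PBS to 1761, 479, 2910 and 971.

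Slc16a4, a monocarboxylate carrier, read 3137, 3743, 3527 and 3399 in WT PBS and 567, 250, 865 and 178 in WT glycerol libraries. It read 5666, 4432, 6435 and 3303 in labelled C3-/- PBS and 731, 2361, 913 and 1575 in labelled C3-/- glycerol libraries. The falls were 3.16 (SE 0.44, limma, adjusted p 0.000171) and 1.94 (SE 0.44, adjusted p 0.0192), and after glycerol it was higher by 1.70 ± 0.44 in the libraries labelled C3-/- (adjusted p 0.0214). The fall in the latter was not called without labelled PBS replicate 1 or 3 or labelled glycerol replicate 1 (adjusted p 0.0649 to 0.0719). The genotype difference was not called without WT glycerol replicate 2 (adjusted p 0.0753) or labelled glycerol replicate 2 (adjusted p 0.0613).

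Slc13a2, the citrate and succinate carrier NaDC1, showed the largest difference between genotypes after glycerol. It read 1043, 959, 862 and 887 in WT PBS, 219, 51, 370 and 178 in WT glycerol, 1890, 2098, 2077 and 1756 in labelled C3-/- PBS, and 926, 1095, 3954 and 1295 in labelled C3-/- glycerol libraries. Every labelled C3-/- library lay above the WT libraries of the same treatment. The change after glycerol was -2.50 in WT, where Slc13a2 was called, and -0.37 ± 0.50 in the libraries labelled C3-/-, where it was not. After glycerol it was higher in the latter by 3.19 ± 0.50 (limma, adjusted p 0.000836). Over 26.2% of its exon bases it overlaps an antisense transcript, Slc13a2os, and whether the counting used strand is not known.

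Slc23a1, the ascorbate carrier SVCT1, followed the same order. Its counts were 5725, 5836, 5754 and 5446 in WT PBS, 2353, 1026, 3072 and 1232 in WT glycerol, 8532, 9092, 9312 and 6026 in labelled C3-/- PBS, and 3810, 6435, 6195 and 5723 in labelled C3-/- glycerol libraries. It fell in WT by 1.71 (SE 0.30, limma, adjusted p 0.000829) and after glycerol was higher by 1.64 ± 0.30 in the libraries labelled C3-/- (adjusted p 0.00227), without overlap. Slc25a10, the mitochondrial dicarboxylate carrier, was also called lower in WT and higher in labelled C3-/- than in WT kidneys after glycerol. It read 2291, 990, 3120 and 5629 in WT and 5846, 4898, 16270 and 6402 in labelled C3-/- glycerol libraries, with the highest value in labelled replicate 3. Slc13a3, the basolateral dicarboxylate carrier NaDC3, read 5385, 1043, 6934 and 11526 after glycerol in WT, against 12185 to 14062 after PBS, and missed the threshold (adjusted p 0.0538).

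Of the organic anion and cation carriers 7 of 10 fell in WT and 0 of 10 in the libraries labelled C3-/-. The median changes of the group were -1.31 in WT and -0.50 in the libraries labelled C3-/-. Slc22a5, the carnitine carrier OCTN2, read 6299, 7388, 7265 and 7648 in WT PBS and 2555, 1532, 2748 and 2144 in WT glycerol libraries (log2 change -1.70 ± 0.31, limma, adjusted p 0.00117). In labelled C3-/- libraries it went from 6010 to 7943 after PBS to 1487, 3337, 5688 and 3962. Slc22a4, the ergothioneine carrier OCTN1 and its neighbour on chromosome 11, fell in WT by 1.08 (SE 0.21, adjusted p 0.00176), from 1049 to 1326 to 413 to 778. After glycerol it was higher in the libraries labelled C3-/- by 1.09 ± 0.21 (adjusted p 0.00348), at 847, 1136, 1656 and 1200, all above WT. After PBS it read 1405 to 1731 in the libraries labelled C3-/-, also all above WT. Slc22a13, a urate and nicotinate carrier, fell in WT by 1.32 (SE 0.32, adjusted p 0.00799) and was higher by 1.82 ± 0.32 in labelled C3-/- than in WT kidneys after glycerol (adjusted p 0.00201). It read 685, 471, 880 and 794 in WT and 3667, 3404, 2020 and 1394 in labelled C3-/- glycerol libraries. After PBS it read 1507 to 1889 in WT and 4049, 4449, 4775 and 2010 in the libraries labelled C3-/-. Labelled libraries without Y-linked transcripts read 3404 to 4775 over both treatments, and those with them 1394 to 2020. All WT libraries have these transcripts.

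Slc22a6, the organic anion transporter OAT1, was not called in any of the 5 comparisons of groups. It read 20495, 20851, 17340 and 19308 in WT PBS and 10869, 1687, 13293 and 18423 in WT glycerol libraries. It read 7230, 5656, 8492 and 26633 in labelled C3-/- PBS and 4686, 6040, 27384 and 11548 in labelled C3-/- glycerol libraries. The change in WT was -1.25 ± 0.70 (limma, adjusted p 0.202) and -0.01 ± 0.70 in the libraries labelled C3-/- (adjusted p 0.994), where it turned positive in 4 alternatives. The genotypes differed by 0.25 ± 0.70 after glycerol (adjusted p 0.869) and by -0.99 ± 0.70 after PBS (adjusted p 0.819). Slc22a8 (OAT3), next to Slc22a6, was called lower in WT, where glycerol replicate 4 alone kept the PBS level, with 12582 against 664 to 3335 in replicates 1 to 3. Slc22a2 (OCT2) and Slc22a12 were not called in WT, at 1019 to 4861 and 5067 to 21030 after glycerol against 7088 to 8762 and 25180 to 30438 after PBS, without overlap. Slc47a1, the proton-coupled exporter MATE1, was called lower in WT and reached its highest value, 33668, in labelled C3-/- glycerol replicate 3.

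In the last group, Slc4a4, the basolateral sodium-bicarbonate cotransporter NBCe1, fell in each genotype. It read 26526, 28520, 27118 and 30140 in WT PBS and 11061, 2688, 12130 and 2204 in WT glycerol libraries. It read 24383, 21092, 21559 and 30722 in labelled C3-/- PBS and 1112, 7239, 2757 and 14462 in labelled C3-/- glycerol libraries. The log2 changes were -2.40 ± 0.67 (limma, adjusted p 0.0167) and -2.51 ± 0.67 (adjusted p 0.0405). The first was lost without WT glycerol replicate 2 (adjusted p 0.0565). The second was lost without any PBS library labelled C3-/- or without labelled glycerol replicate 1 or 3 (adjusted p 0.0804 to 0.129). Aqp1, the constitutive water channel, fell in WT by 2.09 (SE 0.47, adjusted p 0.00436), from 16674 to 19626 after PBS to 5701, 3696, 8323 and 1890. Slc9a3, the sodium-proton exchanger NHE3, had WT glycerol values of 2655, 2943, 3715 and 1034 against 4067 to 5507 after PBS. Its change of -0.99 ± 0.35 missed the threshold (adjusted p 0.0517), and it was called without WT glycerol replicate 3 (adjusted p 0.0249). With the C3-/- label the change of Slc9a3 was -0.52 ± 0.35 (adjusted p 0.345).

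The sulfate carriers were not called after glycerol in either genotype. Slc13a1, the apical sulfate cotransporter NaS1, read 9774, 9085, 8714 and 7835 in WT PBS and 26445, 4668, 28389 and 16251 in WT glycerol libraries. It read 8426, 7580, 8317 and 10558 in labelled C3-/- PBS and 2487, 4989, 5879 and 9429 in labelled C3-/- glycerol libraries. Thus 3 of 4 WT glycerol libraries lay above all WT PBS libraries, and the fourth, replicate 2, lay below them. The change in WT was 0.81 ± 0.48 (limma, adjusted p 0.229), while the authors' deposited table gives 1.10 (adjusted p 0.0494). After glycerol Slc13a1 was lower in the libraries labelled C3-/- (log2 difference -1.59 ± 0.48, adjusted p 0.0428), the only carrier called in that direction. The call was lost without WT glycerol replicate 1 or 3 or labelled glycerol replicate 1, 2 or 3 (adjusted p 0.0732 to 0.128). Slc26a1, the basolateral sulfate and oxalate exchanger SAT1, was not called in WT, at 869 to 2653 after glycerol against 3447 to 4156 after PBS.

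**Figure D4:**
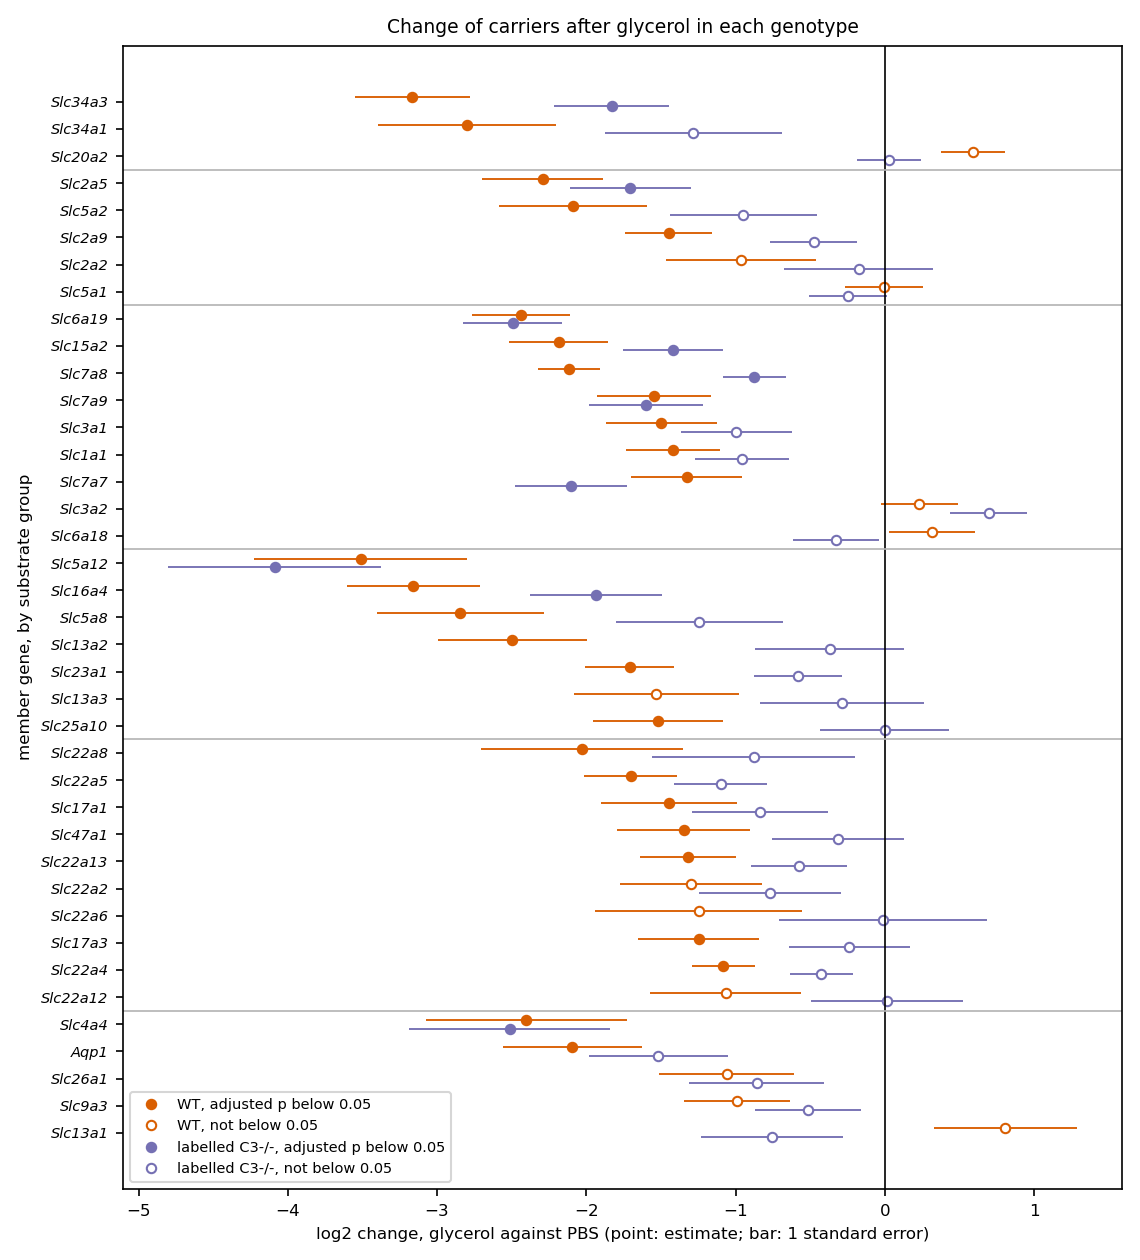
Log2 change after glycerol of each carrier in WT (orange) and in the libraries labelled C3-/- (purple), with 1 standard error; filled points have an adjusted p below 0.05. Changes lie further to the left in WT for 30 of 39 carriers, a count not made over all genes, and Slc6a19, Slc7a9 and Slc4a4 are close in the genotypes.

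Across the carriers, the comparison of genotypes after glycerol gave 9 higher and 1 lower in the libraries labelled C3-/- (limma), against a background of 6.38% higher and 4.85% lower. The higher ones were 4 carboxylate and ascorbate carriers (Slc13a2, Slc23a1, Slc16a4 and Slc25a10), 2 organic ion carriers (Slc22a13 and Slc22a4), Slc15a2, Slc34a3 and Slc2a9. The median was 0.65 over the carriers and 0.04 over all genes. Groups were separate for 4, Slc13a2, Slc22a13, Slc22a4 and Slc23a1, all higher (6.21% of all genes). The same 4 were also separate and higher in the libraries labelled C3-/- after PBS, a difference in the same direction without glycerol. None of them was called after PBS in the fit over all groups. Mean counts in WT and labelled libraries after PBS were 938 and 1955 (Slc13a2), 5690 and 8241 (Slc23a1), 1726 and 3821 (Slc22a13), and 1172 and 1584 (Slc22a4). After glycerol they were 205 and 1817, 1921 and 5541, 708 and 2621, and 566 and 1210. The count of higher carriers was 5 without WT glycerol replicate 1 and 4 without WT glycerol replicate 2. Calls of higher genes over all genes fell there too, from 1150 to 899 and 806. The carrier count was 13 when the second sheet list was left out (background 15.5%). It was 1 when the fit used the glycerol groups alone (background 0.837%). With terms for the sheet list and Y-linked transcripts 21 were higher and 0 lower (background 19.3% and 14.3%), and with array weights 16 were higher and 3 lower (background 18.2% and 17.5%). The leading carriers that were not called include Slc5a2 (0.82 ± 0.49), Slc6a19 (0.40 ± 0.33) and Slc9a3 (0.63 ± 0.35). The comparisons in which WT glycerol libraries enter share those libraries.

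After PBS the comparison of genotypes addresses the carriers without injury. The fit over all groups called 1 carrier higher and 0 lower (background 1.04% and 1.19%), Slc6a18 by 1.27 ± 0.29 (limma, adjusted p 0.0306). It read 15726, 13931, 14344 and 13563 in WT and 42194, 44427, 40996 and 18835 in the libraries labelled C3-/-. Every labelled library was above WT, and replicate 4 was far below the other 3. Leaving out any PBS library except labelled replicate 4 moved the adjusted p to between 0.0699 and 0.126. In a fit to the PBS groups alone, 14 carriers were called higher and 6 lower, against a background of 12.5% and 12.9%. Groups were separate for 13 higher (13.9% of all genes) and 4 lower carriers (13.1%), the latter Slc7a8, Slc5a8, Slc17a3 and Slc3a2. The 13 include Slc13a2, Slc22a13, Slc22a4 and Slc23a1. Of the lead carriers in each group, Slc34a1 differed by -0.23 ± 0.59 (adjusted p 1), Slc5a2 by -0.32 ± 0.49, Slc6a19 by 0.46 ± 0.33, Slc5a12 by 0.39 ± 0.71 and Slc9a3 by 0.16 ± 0.35, with no call. These standard errors pool the spread of all 4 groups, glycerol libraries included, and are not the spread of the PBS libraries alone. Over all genes the pooled fit called 2.23% after PBS in either direction, and the PBS groups alone 25.4%. With the Y-linked term described next, Slc34a1 and Slc5a2 turned to 0.74 and 0.47.

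The PBS libraries labelled C3-/- also differed among themselves, along with the Y-linked transcripts. In labelled C3-/- PBS replicates 1 to 3, which lack them, 17 carriers lay above and 12 below the whole WT PBS range. Replicate 4, which has them, lay outside the range of those 3 libraries for 34 carriers, higher for 23 and lower for 11. For 5 carriers, Slc34a1, Slc5a2, Slc22a6, Slc47a1 and Slc4a4, replicates 1 to 3 lay below WT PBS and replicate 4 above it. These counts were made for the carriers only. Without a share over all genes beside them, they do not show that the carriers stand out. Replicate 4 exceeded the other 3 by the largest ratio in Slc22a6 and Slc22a12: Slc22a6 averaged 7126 in replicates 1 to 3 and read 26633 in replicate 4, and Slc22a12 averaged 10521 and read 28314. In the opposite direction Slc22a13 averaged 4424 and read 2010, and Slc6a18 averaged 42539 and read 18835. Other carriers differed from WT alike in all labelled libraries. Slc13a2, Slc2a5, Slc7a9 and Slc22a8 were above WT PBS in all 4, and Slc7a8 and Slc3a2 below it.

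**Figure D5:**
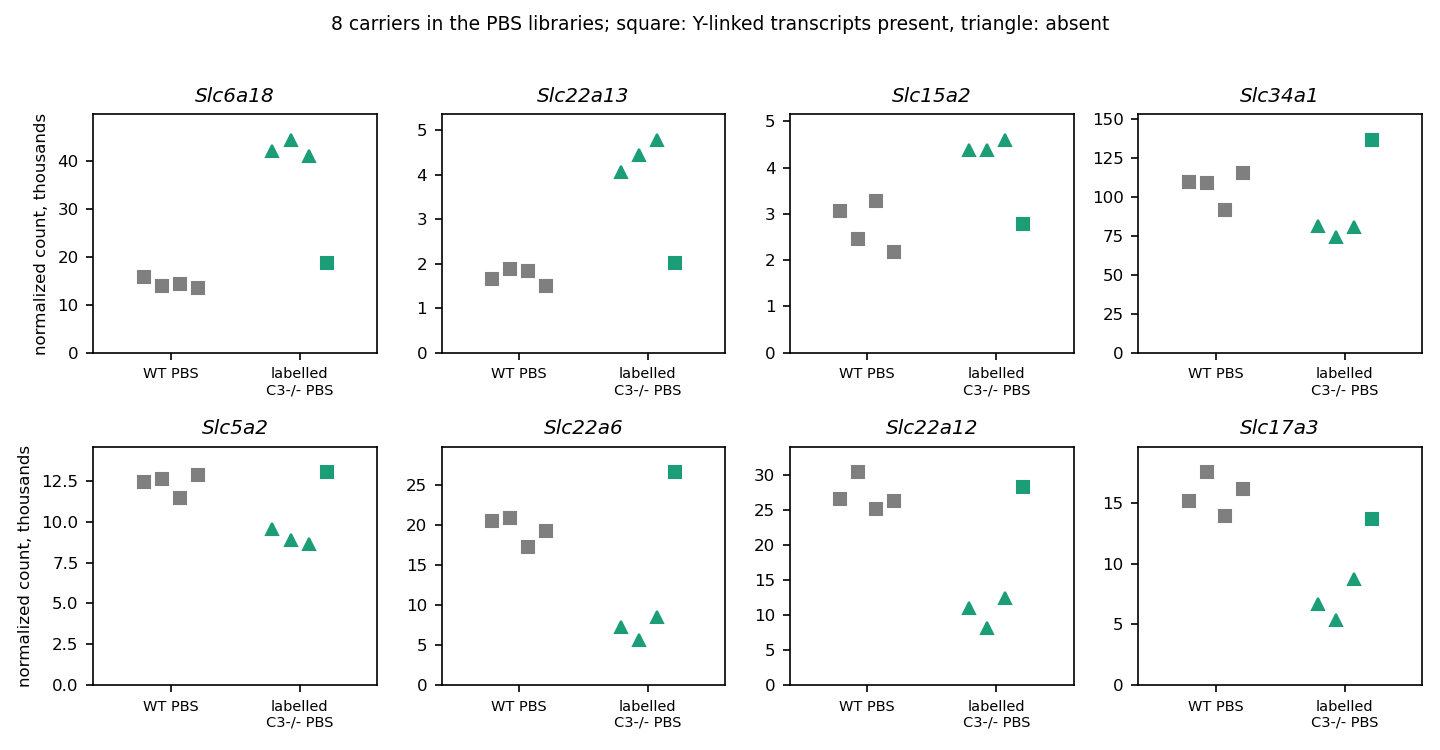
Normalized counts of 8 carriers in the PBS libraries, on linear axes from 0 labelled in units of a kilocount; squares are libraries with Y-linked transcripts and triangles those without. Labelled C3-/- PBS replicate 4, the square of its group, lies apart from the triangles in each panel and nearer to the WT mean than to theirs. For Slc34a1, Slc5a2 and Slc22a6 it lies above all WT squares, and the triangles lie below them.

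The term for the presence of Y-linked transcripts, reported as a comparison only after the data were seen, is informed only by the libraries labelled C3-/-, since all WT libraries have them. It called 1 carrier lower and 0 higher where they are present (background 0.432% and 0.577%): Slc22a13, by 1.10 on the log2 scale (SE 0.20, limma, adjusted p 0.0134). That call was lost without labelled PBS replicate 4 (adjusted p 0.247). Estimates were positive for 9 of 10 organic ion carriers, the largest being Slc22a6 at 1.82 ± 0.60 (adjusted p 0.304), which was called without WT glycerol replicate 2 (adjusted p 0.00383). With this term, 0 carriers were called between the genotypes after PBS (background 0.377% higher and 0.493% lower), and 7 higher and 0 lower after glycerol (background 5.28% and 4.42%). Genotype and Y-linked transcripts cannot be told apart in labelled C3-/- PBS replicates 1 to 3 or in labelled C3-/- glycerol replicates 1 and 2.

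A second list, drawn up as other proximal tubule carriers outside the 39, had more falls than rises in WT. Of 36 tested, 15 fell and 3 rose in WT, against a background of 13.3% lower and 12.5% higher over all genes. The 2 with the smallest p both rose, and both carry phosphate. Slc20a1, the cotransporter PiT-1, went from 1238 to 1773 after PBS to 4595, 3921, 4687 and 8972 (1.84 ± 0.24, limma, adjusted p 8.57e-05). Slc34a2, the cotransporter NaPi-IIb of gut and lung, went from 99 to 134 to 2597, 2435, 2549 and 580 (3.87 ± 0.57, adjusted p 0.000266). They rose while Slc34a1 and Slc34a3 fell. Slc37a4, the glucose-6-phosphate carrier of the endoplasmic reticulum, fell by 2.37 (SE 0.40, adjusted p 0.00062) and Slc6a20b, an imino acid carrier, by 2.72 (SE 0.46, adjusted p 0.000719).

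In the libraries labelled C3-/-, 2 of the 36 fell and 1 rose, Slc20a1 (1.90 ± 0.24, limma, adjusted p 0.000346), at 3063 to 5046 after glycerol against 925 to 1207 after PBS. The background there was 1.96% lower and 3.68% higher. The Slc20a1 rise was close to that in WT. Slc34a2 reached 594, 794, 111 and 614 there, against 98 to 238 after PBS. Between genotypes after glycerol 6 of 36 were higher and 1 lower (background 6.38% and 4.85%). Slc6a20a, another imino acid carrier, was higher by 2.14 ± 0.25 (adjusted p 7.35e-05) and Slc38a3, the basolateral glutamine carrier SNAT3, by 2.18 ± 0.30 (adjusted p 0.0003). Slc6a20a was also higher after PBS (1.73 ± 0.25, adjusted p 0.00108), at 1234 to 1783 against 405 to 515.

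The Y-linked term called 4 higher and 3 lower of the 36 (background 0.577% and 0.432%). Slco1a1, an organic anion carrier known for its male-biased expression in mouse kidney, read 5189 to 9186 in WT PBS, 1, 3 and 0 in labelled C3-/- PBS replicates 1 to 3 and 6180 in replicate 4. Slc7a13, an amino acid carrier with the same known bias, read 19758 to 21968 in WT PBS, 42, 58 and 75 in labelled replicates 1 to 3 and 13076 in replicate 4. Slc17a2 had the opposite pattern, with 5 to 12 in WT PBS, 910, 803 and 937 in labelled replicates 1 to 3 and 6 in replicate 4.

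Proteins that anchor, process or regulate these carriers, and brush-border proteins that act beside them, were tested as a list. Of 27 partners and regulators tested, 12 fell and 0 rose in WT (background 13.3% and 12.5%), with a median change of -0.86 against -0.11 over all genes. The smallest p belonged to Dpep1, a brush-border dipeptidase (-2.24 ± 0.36, limma, adjusted p 0.000496), Kl, the FGF23 co-receptor klotho (-2.70 ± 0.49, adjusted p 0.00117), Lrp2, the endocytic receptor megalin (-2.17 ± 0.42, adjusted p 0.00164), and Car4, the luminal carbonic anhydrase (-2.14 ± 0.44, adjusted p 0.00272). Kl read 23596 to 28882 in WT PBS and 1510 to 7684 in WT glycerol libraries. Anpep, a brush-border aminopeptidase, was higher in labelled C3-/- than in WT kidneys after glycerol (1.67 ± 0.48, adjusted p 0.035).

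Markers of the nephron's segments and of other cells moved as well. Of 13 proximal tubule markers, 10 fell in WT and 4 in the libraries labelled C3-/-, and their summed counts dropped from between 1124550 and 1217730 in WT PBS to between 226227 and 507316 in WT glycerol libraries. Of 10 thick ascending limb and distal tubule markers 7 fell in WT, and of 10 collecting duct markers 5. Of 6 podocyte markers 0 fell and of 7 endothelial markers 2 did. Among 15 leukocyte markers 5 rose and 3 fell in WT, and among 6 fibroblast markers 2 rose and 2 fell. Of 2 skeletal muscle markers tested, 1 fell. Over all genes 13.3% fell and 12.5% rose in WT. The fibroblast markers summed to between 4479 and 8121 in WT PBS and between 8387 and 16599 in WT glycerol libraries, so the groups were separate. In the libraries labelled C3-/- the same markers had medians of 3363 after PBS and 3405 after glycerol. The skeletal muscle markers summed to between 353 and 410 in WT PBS and between 21 and 69 in WT glycerol libraries. This drop was that of Pvalb, which is also in the distal tubule list, with means of 350 and 27.3. Mylpf, the other marker, had means of 21.5 and 23.2, so the sum does not show a loss of muscle RNA. Outside the proximal tubule list, 1 thick ascending limb and distal tubule marker fell and 1 leukocyte marker rose in the libraries labelled C3-/-, and 0 markers of the other lists were called (background 1.96% lower and 3.68% higher). Thick ascending limb and distal tubule markers summed there to between 304443 and 364637 after PBS and between 114725 and 353912 after glycerol, with overlap. The part of cell composition in the carrier values was not tested.

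The authors' deposited tables list 25 carriers lower and 2 higher (Slc13a1 and Slc20a2) in WT after glycerol, against 13.1% and 15.9% of the genes in that table. They list 13 lower and 1 higher (Slc3a2) in the libraries labelled C3-/- (5.46% and 10.4%), and 10 higher and 1 lower (Slc13a1) between the genotypes after glycerol (9.56% and 7.25%). Slc34a1 and Slc5a2 have no p-value in any of the 3 deposited tables of the authors, which give Slc34a1 log2 changes of -2.58, -0.71 and 1.68.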

How the data were processed

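RNA from 16 mouse kidney libraries was sequenced. The deposited matrix holds DESeq2-normalized counts per gene, a depth-scaled signal made by the authors, and not whole reads. STAR 2.7.1, DESeq2, R 3.6.1 and GRCm38 are named in the submitters' processing notes, and the deposited matrix is named for Ensembl release 96. For the counting program and the strand setting: not given in the sources used here. Of values below 60, 12.9% to 45.2% per library were whole within 0.02, so no count model was run. The authors' deposited tables also give log2 fold changes, a test score and p-values per gene, and the score was not used.

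Genes with at least 10 in at least 4 libraries were kept. log2(value + 1) was fitted with limma 3.58.1 (R 4.3.3, a spread trend with level, all 4 groups in the fit), with Benjamini-Hochberg adjustment over all 18035 genes and a call at 0.05. Each gene thus has 1 spread pooled over the 4 groups. Its standard errors and p-values do not separate the spread of PBS libraries from that of glycerol libraries. A fold change on this scale understates changes of low genes. Levels per kb used exon lengths of GENCODE M21, and promoters came from RefSeq (GRCm38.p6). Other promoter motifs were searched and are not reported here. The script was tested on simulated data. Replicates 1 to 4 share a number across groups, and 4 of 24 same-numbered pairs had a correlation over 0.1. WT glycerol replicate 1 and labelled C3-/- glycerol replicate 4, with different numbers, reached 0.67. The check therefore cannot tell whether the numbers pair the libraries, and the main fit did not pair them.

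The members and lists were chosen with earlier results of these data known. Fitted changes are given for the 3 called carriers with the smallest p per substrate group and comparison, and for 6 leading carriers in all comparisons. Fitted values of Slc20a2, Slc5a1, Slc2a2, Slc13a1, Slc13a3, and further ones of Slc7a8, Slc7a7 and Slc13a2 were added after their values were seen. Alternatives covered the pseudocount, filter, scaling, array weights, groups fitted, each library left out, sheet list and Y-linked transcripts. The comparison of libraries with and without Y-linked transcripts was added after seeing the data (present: a sum of at least 100). Totals of 25.81 to 38.39 M normalized counts do not give read depth, which is unknown, so precision rests on the 4 libraries per group.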

Additional observations from a re-analysis of the deposited data

Results flagged for a closer look

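In 13 of 156 sets of 4 libraries, the highest or lowest library stood far from the other 3 (its gap over the range exceeded Dixon's 95% critical value, which chance alone passes in about 1 in 20 sets). Labelled C3-/- PBS replicate 4, the library of its group with Y-linked transcripts, was low for Slc15a2 (2777) and Slc6a18 (18835) and high for Slc47a1 (18207), Slc34a1 (136425) and Slc26a1 (8039). Labelled C3-/- PBS replicate 3 was low for Slc6a19 (9793). Labelled C3-/- glycerol replicate 3, of the second sheet list, was high for Slc13a3 (21751) and Slc47a1 (33668), and replicate 1, of the same list, was low for Slc17a1 (2130) and Slc9a3 (1837). WT glycerol replicate 2 was low for Slc22a2 (1019), WT glycerol replicate 4 for Slc20a2 (1023) and WT PBS replicate 3 for Slc2a2 (4449).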

How the results depend on the processing

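For WT after glycerol, the count of carriers called lower stayed within 1.5 times of 27 under every alternative run, and ranged from 20 to 29 when 1 library was left out. Carriers called higher numbered 1 with a mean of at least 100, equal upper quartiles, quantile normalization, the first sheet list alone, or a sheet list term with or without the Y-linked term, 3 with array weights, and 0 to 1 with a library left out. The array-weights fit gave a convergence warning. Of all genes it called 60.4% in WT after glycerol, in either direction, against 25.9% without weights. It called 31% in the libraries labelled C3-/-, 35.7% between genotypes after glycerol and 38.1% after PBS (5.63%, 11.2% and 2.23% without weights). For the difference between responses and the Y-linked term it called 17.9% and 47.8% (0.438% and 1.01% without weights). In the libraries labelled C3-/-, 25 were lower and 2 higher with array weights, 4 lower from the 2 groups alone, 17 lower and 2 higher with both terms, 2 higher in the first sheet list and 1 higher with its term. Of all genes, the 2 groups alone called 1.71% there, both terms 18.8%, the first sheet list 23% and its term 14.5%. Leaving out 1 library gave 4 to 13 carriers lower and 0 to 1 higher. Between genotypes after glycerol, array weights gave 16 higher and 3 lower, both terms 21 and 0, the sheet list term 14 higher, and the glycerol groups alone 1 and 0. Both terms called 33.6% of all genes, the sheet list term 31.7% and the glycerol groups alone 1.65%. Equal totals and the Y-linked term each gave 0 carriers lower. Leaving out 1 library gave 4 to 12 higher and 0 to 2 lower. After PBS, array weights gave 14 higher and 10 lower, the PBS groups alone 14 and 6, the first sheet list 3 and 1, its term 2 and 1, and the Y-linked term, with or without the list, 0 higher. Of all genes, the PBS groups alone called 25.4%, the first sheet list 19.3% and its term 8.37%. The median of the carriers moved to 0.24 with equal totals and to 0.44 with the Y-linked term, with or without the list. Leaving out 1 library gave 0 to 2 higher and a median of 0.09 to 0.18. For the difference between responses, array weights gave 13 higher and 3 lower, the first sheet list 2 and 1, its term 3 higher and both terms 4 higher, and leaving out 1 library 0 to 1 higher. The first sheet list called 10.3% of all genes, its term 7.34% and both terms 8.76%. For the Y-linked term, array weights gave 20 higher and 8 lower, the first sheet list 2 lower, and its term 1 higher and 2 lower. Of all genes, the first sheet list called 3.42% and its term 4.4%. Leaving out 1 library gave 0 to 3 carriers higher, 0 to 2 lower and a median of 0.15 to 0.93. Medians with 1 library left out were 0.41 to 0.95 between genotypes after glycerol, 0.51 to 0.98 for the difference between responses, -0.92 to -0.56 in the libraries labelled C3-/- and -1.73 to -1.18 in WT. Equal totals moved the median of all genes from -0.01 to -0.14 for the Y-linked term and from 0.03 to -0.08 for the difference between responses. The causes were not tested.

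The replicate block gave 6 carriers lower in the libraries labelled C3-/- after glycerol, where it called 3.5% of all genes in either direction. It gave 0 lower between genotypes after glycerol and 0 lower for the Y-linked term. Whether the replicate numbers pair the samples is not known.

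Signs turned for small estimates. After glycerol in the libraries labelled C3-/-, Slc22a6 was 0.0458 with quantile normalization and 0.47, 0.34 and 0.22 without labelled PBS replicate 4 or labelled glycerol replicate 1 or 2 and Slc9a3 0.0204 with the sheet list term. Between genotypes after glycerol, Slc22a6 was -0.50 with array weights and -0.51 and -0.25 without WT glycerol replicate 2 or labelled glycerol replicate 3 (range -0.51 to 0.64 with a library left out). Slc5a12 was 0.58 with array weights, 1.32 in the first sheet list, 0.24 with its term, 0.27 with the Y-linked term, 0.69 with both, and 0.18 and 0.62 without WT glycerol replicate 3 or labelled glycerol replicate 1 (range -0.84 to 0.62). After PBS, the Y-linked term, with or without the list, gave Slc22a6 0.38, Slc34a1 0.74 and Slc5a2 0.47. For the difference between responses, Slc5a12 was 0.25 with array weights, 0.93 in the first sheet list and 0.23 without labelled glycerol replicate 1 (range -1.22 to 0.23), and Slc6a19 was 0.11 with the sheet list term and 0.13 and 0.31 without WT glycerol replicate 3 or labelled glycerol replicate 1 (range -0.29 to 0.31). For the Y-linked term Slc5a12 was -0.012 without labelled glycerol replicate 1 (range -0.012 to 1.63). The causes were not tested.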
